A study of Xenopus laevis with 12 samples.

Results

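The TATA-binding protein gene tbp was examined in RNA recovered from oocyte condensates of the frog Xenopus laevis. X. laevis carries a doubled genome, and tbp is present as the homeologs tbp.L (gene3192) and tbp.S (gene7569). These 2 genes, of 51061 in the count files, were taken by their names in the authors' deposited tables and followed by identifier into the counts. Both passed the filter on low counts, which left 20803 genes for testing.

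TBP is the DNA-binding subunit of TFIID, the factor that marks core promoters for RNA polymerase II. It also works in SL1 at ribosomal RNA genes and in TFIIIB at genes of RNA polymerase III. Frog oocytes store maternal tbp mRNA, whose translation is known to increase only in the embryo, around the onset of zygotic transcription. The related factor tbpl2 serves much of the oocyte's own transcription. Outside this field tbp is often used as a reference transcript for expression measurements.

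The libraries came from pooled oocytes of stages II and III, whose lysate was fractionated by size to enrich L-bodies, the condensates of RNA and protein that form during vegetal RNA transport. RNA in these fractions was immunoprecipitated with antibodies to Staufen or to hnRNPab, or with IgG, giving 4 libraries for each. Both proteins bind RNA, and IgG is the antibody control of the design. The comparisons show which RNAs are recovered with each protein only if the labels match the antibodies, which is not assumed below. Separate frogs are not named for the replicates in the labels, and the p-values then rest on a spread between libraries that may be only technical. Same-numbered libraries of different labels deviated together.

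Gene counts per library ran from 14147584 to 22103431. Of singly aligned reads, 13.44% to 14.79% lay outside annotated exons in Staufen-labelled libraries, 11.01% to 12.88% in hnRNPab-labelled libraries and 16.86% to 19.63% in IgG-labelled libraries. The part of this difference in the results below was not tested. The labels and the authors' deposited tables go different ways for many genes. Of the 1482 tested genes listed in the authors' deposited hnRNPab table alone, 82.9% were lower in hnRNPab-labelled than in IgG-labelled libraries and 0 were higher. Every group is therefore named here by its label, without assuming that the label is the antibody used. Of the oocyte markers, only gdf9.L has a name here, of 13 in the reference gene table. It had 146.0 ± 7.53 CPM (counts scaled to library size) in Staufen-labelled, 309.2 ± 49.3 CPM in hnRNPab-labelled and 112.6 ± 12.6 CPM in IgG-labelled libraries (SD, n = 4 each).

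The tbp mRNAs were most abundant in the hnRNPab-labelled libraries, intermediate in the Staufen-labelled libraries and lowest in the IgG-labelled libraries. This order held for both homeologs in each of the 4 replicate numbers. Levels are CPM after TMM scaling, which corrects for library composition, and are shares of the recovered RNA, so a higher tbp level cannot be told apart from a lower level of other RNAs. The copies are not compared in level, since CPM is not corrected for transcript length.

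tbp.L had 39.42, 40.43, 43.05 and 50.12 CPM in Staufen-labelled libraries 1 to 4. It had 100.1, 86.51, 102.1 and 115.4 CPM in hnRNPab-labelled libraries 1 to 4. The IgG-labelled libraries 1 to 4 had 30.6, 28.22, 28.43 and 33.21 CPM of tbp.L. No 2 of these groups overlapped, and the lowest hnRNPab-labelled library, replicate 2, lay well above the highest Staufen-labelled one, replicate 4. Of all tested genes, 6.67% were separate in the same direction in Staufen against IgG. The share was 15.2% in hnRNPab against IgG and 15.5% in Staufen against hnRNPab. Genes separate in all comparisons at once were not counted.

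tbp.S had 55.77, 50.05, 53.1 and 58.18 CPM in Staufen-labelled libraries 1 to 4. Its levels were 189, 145.2, 193.7 and 208.2 CPM in hnRNPab-labelled libraries 1 to 4. In IgG-labelled libraries 1 to 4 it had 39.08, 32.19, 32.97 and 38.96 CPM. The groups were again separate, with replicate 2 the lowest library under each label.

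**Figure D1:**
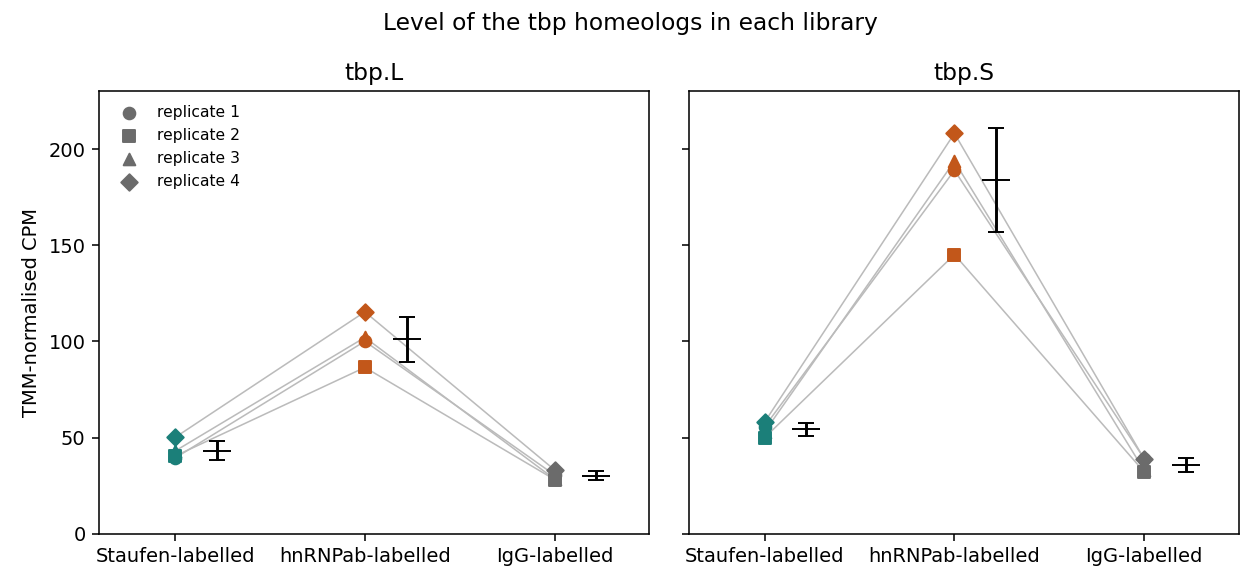
TMM-normalised CPM (y axis) of tbp.L (left) and tbp.S (right) in the 12 libraries by label. Marker shapes stand for replicate numbers, grey lines join libraries with the same number, and black bars give the mean and SD of 4 libraries; the hnRNPab-labelled libraries lie above all others for both homeologs, from 86.51 CPM for tbp.L and from 145.2 CPM for tbp.S.

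Both homeologs rose in the Staufen-labelled libraries over the IgG-labelled libraries. tbp.L averaged 43.25 ± 4.83 CPM in Staufen-labelled and 30.11 ± 2.33 CPM in IgG-labelled libraries (SD, n = 4 each), a 1.44-fold difference (log2 0.52, SE 0.11, edgeR adjusted p = 0.0121). tbp.S averaged 54.28 ± 3.5 CPM in Staufen-labelled and 35.8 ± 3.73 CPM in IgG-labelled libraries (SD, n = 4 each), a 1.52-fold difference (log2 0.60, SE 0.117, edgeR adjusted p = 0.00771). Within replicate numbers, Staufen-labelled over IgG-labelled ratios were 1.29 to 1.51 for tbp.L and 1.43 to 1.61 for tbp.S, above 1 in 4 of 4 pairs for each.

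Without the replicate number as a block, calls in this direction were uncommon in this comparison. Of all tested genes, 4.45% were called higher in Staufen-labelled than in IgG-labelled libraries by the same test, and 3.33% lower, while 6.67% had higher CPM with no overlap between the groups. With the replicate number as a block, 19% of tested genes were called higher and 20.5% lower, and both tbp genes were among them (edgeR adjusted p = 1.73e-08 for tbp.L and 1.31e-09 for tbp.S). Of the 491 homeolog pairs with both copies named and tested, 9 had both copies called higher without the block, or 1.83%, and tbp is 1 of the 9. Pairs were not counted with the block, here or in the comparisons below, and more would be called with it if pairs followed single genes. By size, tbp.L ranked 1197 and tbp.S ranked 871 from the highest log2 fold change among 20803 genes.

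The rise was larger in the hnRNPab-labelled libraries over the IgG-labelled libraries. tbp.L averaged 101 ± 11.8 CPM in hnRNPab-labelled and 30.11 ± 2.33 CPM in IgG-labelled libraries (SD, n = 4 each), a 3.35-fold difference (log2 1.75, SE 0.113, edgeR adjusted p = 3.89e-07). tbp.S averaged 184 ± 27.1 CPM in hnRNPab-labelled and 35.8 ± 3.73 CPM in IgG-labelled libraries (SD, n = 4 each), a 5.14-fold difference (log2 2.36, SE 0.122, edgeR adjusted p = 9.06e-08). Within replicate numbers, the hnRNPab-labelled over IgG-labelled ratios ran from 3.07 to 3.59 for tbp.L and from 4.51 to 5.87 for tbp.S.

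Many genes moved in this comparison, with 16.3% of tested genes called higher (31.3% with the replicate block), 17.4% called lower, and 15.2% higher with no overlap in CPM. Of the 491 named homeolog pairs, 187 had both copies called higher, or 38.1%. By size the tbp genes were near the top, tbp.S at rank 46 and tbp.L at rank 275 from the highest of 20803 log2 fold changes. Neither the direction nor the size is independent of how the genes got their names. Both are listed in the authors' deposited Staufen table alone, and 83% of the 1978 tested genes of that kind were higher here. The median log2 fold change of those genes was 0.96, against -0.02 over all tested genes. The tbp genes were not ranked among those genes alone. In Staufen-labelled over IgG-labelled libraries, 8.14% of those genes were higher and 1.31% lower.

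Set against hnRNPab-labelled libraries, Staufen-labelled libraries held less of both mRNAs. The log2 fold change was -1.22 for tbp.L (SE 0.111, edgeR adjusted p = 5.84e-06) and -1.76 for tbp.S (SE 0.119, edgeR adjusted p = 7.49e-07). Staufen-labelled over hnRNPab-labelled ratios within replicate numbers were 0.394 to 0.467 for tbp.L and 0.274 to 0.345 for tbp.S. Of tested genes 16.3% were called lower in this comparison (31.5% with the replicate block) and 16.5% higher, and 15.5% were lower with no overlap in CPM. Both copies were called lower in 39.9% of the 491 named pairs. Of the 1978 tested genes in the authors' deposited Staufen table alone, where tbp is listed, 80.1% were lower here and 0.354% higher. The direction of tbp is therefore not independent of how its genes were named.

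**Figure D2:**
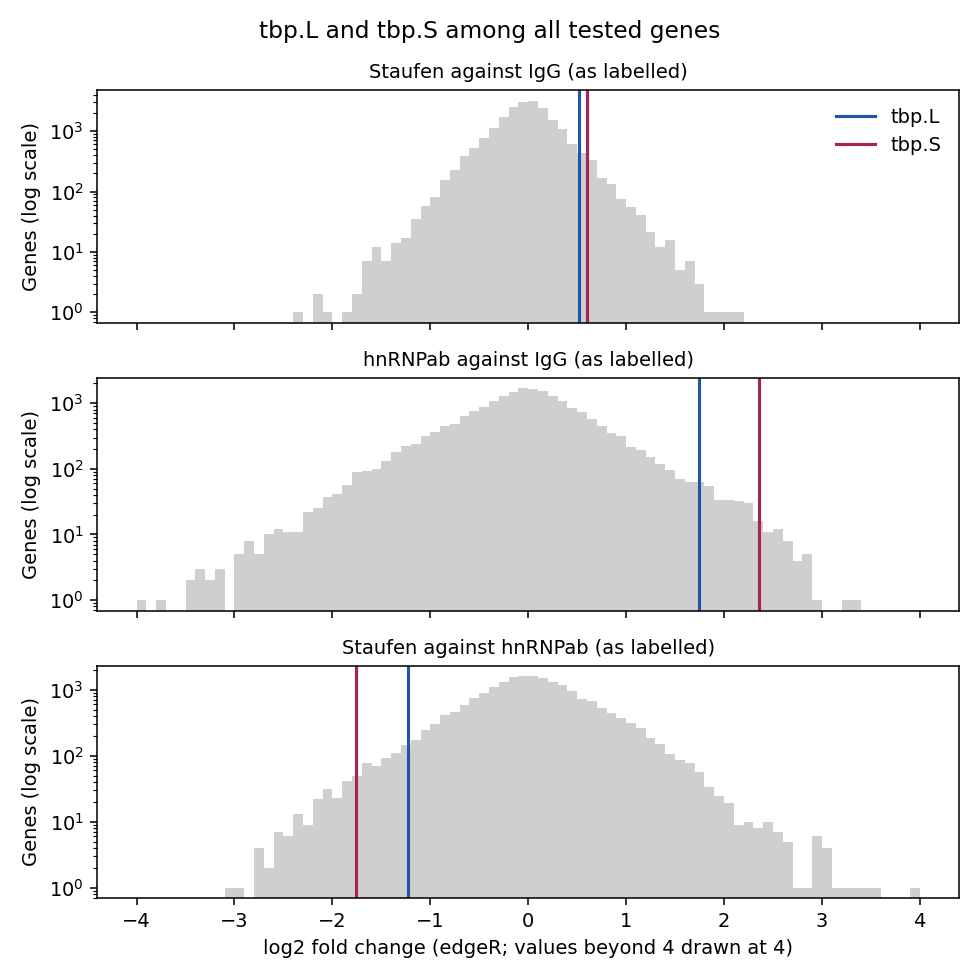
Histograms of the edgeR log2 fold change (x axis) over the 20803 tested genes (y axis, number of genes on a log scale) in the 3 comparisons as labelled, with tbp.L in blue and tbp.S in red. Both lines lie right of the bulk in Staufen against IgG, at 0.52 and 0.60, and in the outer tail of hnRNPab against IgG, at 1.75 and 2.36.

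Reads from near-identical copies can be assigned to the wrong homeolog, so the counts of both were also added and fitted as 1 gene. The sum had 97.53 ± 7.6 CPM in Staufen-labelled, 285 ± 38.5 CPM in hnRNPab-labelled and 65.91 ± 5.89 CPM in IgG-labelled libraries (SD, n = 4 each). It was 1.48-fold higher in Staufen-labelled than in IgG-labelled libraries (edgeR adjusted p = 0.00762). It was 4.33-fold higher in hnRNPab-labelled than in IgG-labelled libraries (edgeR adjusted p = 1.19e-07). The sum does not depend on how the counted reads were divided between the copies. Any reads that align to both copies and were left uncounted are missing from it.

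The balance between the homeologs also differed between labels. tbp.L made up 41.4%, 44.7%, 44.8% and 46.3% of the counts of both genes in Staufen-labelled libraries 1 to 4. Its share was 34.6%, 37.3%, 34.5% and 35.7% in hnRNPab-labelled libraries 1 to 4. In IgG-labelled libraries 1 to 4 it was 43.9%, 46.7%, 46.3% and 46.0%. The hnRNPab-labelled libraries were the low ones and did not overlap with the others, while Staufen-labelled and IgG-labelled libraries overlapped. Such separation was common. Of the 491 named homeolog pairs, 50.9% did not overlap in hnRNPab against IgG and 45.8% in Staufen against hnRNPab, in either direction.

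Intervals for counting error on either side of this gap came close to each other but did not overlap. The tbp counts behind a share ran from 1307 to 1962 in Staufen-labelled, 4050 to 6094 in hnRNPab-labelled and 1054 to 1604 in IgG-labelled libraries. The highest hnRNPab-labelled share, 37.3% in replicate 2, had a 95% Wilson interval of 35.9% to 38.8%. The lowest share under another label, 41.4% in Staufen-labelled replicate 1, had an interval of 39.2% to 43.7%. Such intervals cover counting error only.

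The mean tbp.L share was 35.5% ± 1.3 in hnRNPab-labelled and 45.7% ± 1.25 in IgG-labelled libraries (SD, n = 4 each), a difference of -10.2 percentage points. A two-sided exact permutation test gave p = 0.0286, the smallest that 4 against 4 allows (adjusted p = 0.0429 over 3 comparisons). The share was lower in hnRNPab-labelled libraries in 4 of 4 replicate numbers, by -11.8 to -9.29 points. With the replicate number as a block, an exact sign-flip test gave p = 0.125 (adjusted p = 0.188), the smallest that 4 pairs allow.

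In Staufen-labelled libraries the mean tbp.L share was 44.3% ± 2.05, against 35.5% ± 1.3 in hnRNPab-labelled libraries (SD, n = 4 each). The difference of 8.75 points had the same exact permutation p = 0.0286 and adjusted p = 0.0429, and the same sign-flip p = 0.125. Against the IgG-labelled libraries, the Staufen-labelled share differed by -1.45 points (exact permutation p = 0.314, adjusted p = 0.314). Within replicate numbers that difference ran from -2.5 to 0.269 points, lower in 3 of 4.

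**Figure D3:**
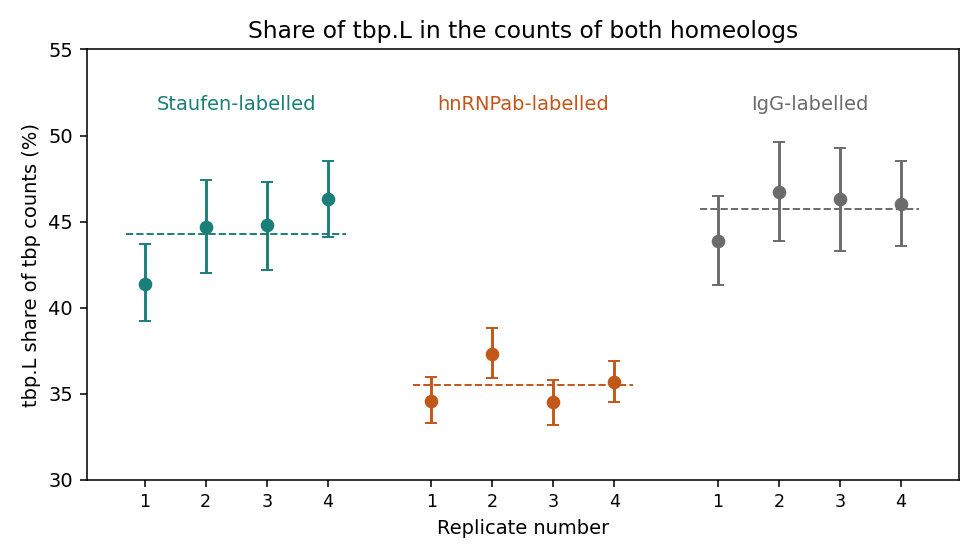
Share of tbp.L in the counts of tbp.L and tbp.S (y axis, percent, axis from 30) for replicates 1 to 4 under each label. Points are libraries, bars are 95% Wilson intervals and dashed lines are group means; the 4 hnRNPab-labelled libraries sit between 34.5% and 37.3%, below the 41.4% to 46.7% of the other 8.

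Unequal changes of homeologs were common, and many named pairs shifted by more than tbp. The 491 named pairs include pairs whose copies the authors listed in different tables. In 191 of the 491, both copies are in the authors' deposited Staufen table alone, as for tbp. The shift of tbp was not compared with these separately. Of the 491 named pairs, 50.9% had .L shares that did not overlap between hnRNPab-labelled and IgG-labelled libraries, 45.8% between Staufen-labelled and hnRNPab-labelled libraries, and 20.8% between Staufen-labelled and IgG-labelled libraries. The median absolute change in share was 6.82 points for hnRNPab against IgG, and 171 pairs changed by more than tbp. In Staufen against IgG the median was 2.92 points, and 349 pairs changed by more than the 1.45 points of tbp. Reads overlapping several annotated genes were 0.5506% to 0.624% of singly aligned reads in Staufen-labelled libraries. They were 0.6488% to 0.7906% in hnRNPab-labelled and 0.5213% to 0.6324% in IgG-labelled libraries. Reads that align to both copies of a pair are not singly aligned, so these values do not cover them. The part of either kind of read in the shares was not tested.

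**Figure D4:**
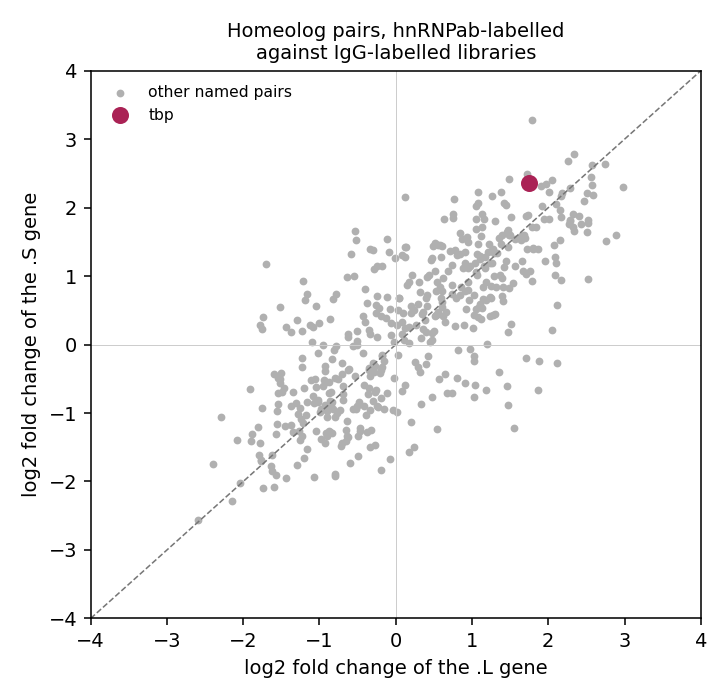
Log2 fold change of the .S copy (y axis) against that of the .L copy (x axis) in hnRNPab-labelled over IgG-labelled libraries for the 491 homeolog pairs with both copies named, with tbp in red and equal change as a dashed line. tbp lies at 1.75 and 2.36, above the line, and 197 pairs have a larger difference between their copies.

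The authors' deposited Staufen table gives tbp.L a log2 fold change of 1.45 and tbp.S one of 1.68 (adjusted p = 3.5e-10 and 5.94e-10 in the authors' deposited table). Among the 2457 genes of the authors' deposited table, tbp.L ranks 219 and tbp.S ranks 258 by p-value. From the highest log2 fold change there, tbp.L ranks 794 and tbp.S ranks 461. Neither gene is in the authors' deposited hnRNPab table. None of the differences between labels gave exactly these values, but some lay closer than others. Over 2426 tested genes of the Staufen table, the median absolute gap to the authors' log2 fold changes was 0.468 for hnRNPab minus IgG. It was 0.487 for hnRNPab minus Staufen and 1.26 for Staufen minus IgG. In the counts, Staufen minus IgG gave 0.52 for tbp.L and 0.60 for tbp.S, hnRNPab minus IgG gave 1.75 and 2.36, and hnRNPab minus Staufen gave 1.22 and 1.76. The homeologs lie closer together in the authors' deposited table than in the differences that involve hnRNPab-labelled libraries. The sources used here do not give the control behind the authors' fold changes.

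Most of the genes that work with TBP and have a name here were higher in hnRNPab-labelled than in IgG-labelled libraries, as tbp was. The 7 lists of TBP paralogues, TFIID subunits, TBP regulators, other general factors, Pol I and Pol III factors, RNA polymerase subunits and Mediator subunits hold 164 genes in the reference gene table. Only 16 of them have a name here and were tested, each because the authors listed it. The authors' deposited Staufen table lists 12 of them, the hnRNPab table another 3, and 1 is in both, so their directions are not independent evidence. In hnRNPab-labelled over IgG-labelled libraries 12 rose, 3 fell and 1 did not pass (median log2 1.21, against -0.02 over all tested genes), where 16.3% of all tested genes were called higher and 17.4% lower. Among the 1978 tested genes of the Staufen table alone, the source of 12 of the 16, 83% were higher, so the count is not a result about these genes. In Staufen-labelled over IgG-labelled libraries 2 rose and 1 fell (median log2 0.02, against -0.01 over all), where 4.45% of all tested genes were called higher and 3.33% lower. With the replicate block 5 rose and 2 fell, where 19% of all tested genes were called higher and 20.5% lower. The added calls were higher tbpl1.L (edgeR adjusted p = 7.96e-05 with the block), polr3gl.L (4.58e-05) and gtf2a1.L (0.0383) and lower brf2.L (0.0148).

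TFIIA stabilises TBP on the promoter, and a gene for its large subunit, gtf2a1.L, had the highest rise of the 16 in hnRNPab against IgG. It had 66.7 ± 7.07 CPM in Staufen-labelled, 338.2 ± 33.9 CPM in hnRNPab-labelled and 59.17 ± 7.15 CPM in IgG-labelled libraries (SD, n = 4 each). In hnRNPab against IgG its log2 fold change was 2.51 (SE 0.118, edgeR adjusted p = 4.76e-08), and that of gtf2a1.S was 1.82 (SE 0.104, edgeR adjusted p = 1.71e-07). Here the .L copy had the larger fold change, the reverse of tbp. Neither TFIIA gene passed in Staufen against IgG without the replicate block (edgeR adjusted p = 0.514 for gtf2a1.L and 0.967 for gtf2a1.S). With it, gtf2a1.L passed (log2 0.18, SE 0.0678, edgeR adjusted p = 0.0383) and gtf2a1.S did not (0.648).

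taf4.L, which encodes a TFIID scaffold subunit, followed the order of tbp across all labels. It had 57.43 ± 3.08 CPM in Staufen-labelled, 112.6 ± 8.93 CPM in hnRNPab-labelled and 29.98 ± 3.31 CPM in IgG-labelled libraries (SD, n = 4 each). It rose in Staufen against IgG (log2 0.94, SE 0.0974, edgeR adjusted p = 0.000187) and in hnRNPab against IgG (1.91, SE 0.0994, edgeR adjusted p = 9.06e-08). The other named TFIID gene, taf9b.L, fell in hnRNPab against IgG (log2 -0.92, SE 0.151, edgeR adjusted p = 0.000482). Unlike taf4.L, it is listed in the authors' deposited hnRNPab table alone, where most genes fell in this comparison.

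Of the genes for factors that resemble or restrain TBP, tbpl1.L rose in hnRNPab against IgG (log2 1.63, edgeR adjusted p = 7.02e-05). It encodes a TBP-like protein that does not bind the TATA box. dr1.S, for a subunit of the repressor NC2 that binds TBP on DNA, also rose (log2 0.82, edgeR adjusted p = 3.21e-05).

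TFIIIB joins TBP to a BRF subunit, and brf1.L moved opposite to tbp. It had 191.7 ± 23 CPM in Staufen-labelled, 73.54 ± 8.08 CPM in hnRNPab-labelled and 533.2 ± 82.6 CPM in IgG-labelled libraries (SD, n = 4 each). It fell by 1.48 on the log2 scale in Staufen against IgG (SE 0.134, edgeR adjusted p = 0.000107) and fell by 2.86 in hnRNPab against IgG (SE 0.141, edgeR adjusted p = 6.37e-08). The hnRNPab-labelled libraries were thus the lowest for brf1.L and the highest for tbp. brf1.L is listed in the authors' deposited hnRNPab table alone. Of the 1482 tested genes of that kind, 82.9% were lower in hnRNPab against IgG and 0 were higher. In Staufen against IgG, 21.1% of them were lower and 1.15% higher. As tbp is in the Staufen table alone, the opposite directions in hnRNPab against IgG follow how the genes were listed. The relative of brf1.L, brf2.L, is in both deposited tables. It was at 87.47 ± 7.05 CPM in Staufen-labelled, 99.49 ± 8.83 CPM in hnRNPab-labelled and 98.54 ± 12.5 CPM in IgG-labelled libraries (SD, n = 4 each). It passed in no comparison without the replicate block. With the block it was lower in Staufen against IgG (log2 -0.17, SE 0.0551, edgeR adjusted p = 0.0148) and in Staufen against hnRNPab (-0.18, SE 0.0552, edgeR adjusted p = 0.00413), and did not pass in hnRNPab against IgG (0.8).

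Other rises in hnRNPab against IgG were those of gtf2e1.L, for a TFIIE subunit (log2 1.69), med1, for a Mediator subunit (1.54), gtf3c2.L, for a TFIIIC subunit (1.52), polr3gl.L, for an RNA polymerase III subunit (1.35), and med18.S (0.88), with edgeR adjusted p of 0.00581 or less. rrn3.L, for a Pol I initiation factor, rose as well (1.07, edgeR adjusted p = 0.0203), a call lost without IgG 3 (0.0613), hnRNPab 2 (0.063) or hnRNPab 4 (0.0572). The Mediator gene med27.L fell (-0.88, edgeR adjusted p = 0.00405) and, like brf1.L and taf9b.L, is listed in the hnRNPab table alone. polr1d.1.L, for a subunit shared by RNA polymerases I and III, rose in Staufen against IgG (0.88, edgeR adjusted p = 0.00284) and in hnRNPab against IgG (0.92, edgeR adjusted p = 0.000354). In Staufen against hnRNPab, 3 of the 16 genes were higher and 11 lower (median log2 -0.98, against 0.02 over all tested genes), where 16.5% of all tested genes were called higher and 16.3% lower. Of the 1978 genes of the Staufen table alone, 80.1% were lower there, so this count too follows how the genes were listed. In that comparison, leaving out 1 library left 12 to 14 of the 16 genes called. Calls were lost for polr3gl.L, med27.L and rrn3.L (edgeR adjusted p up to 0.102, 0.0639 and 0.0547).

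**Figure D5:**
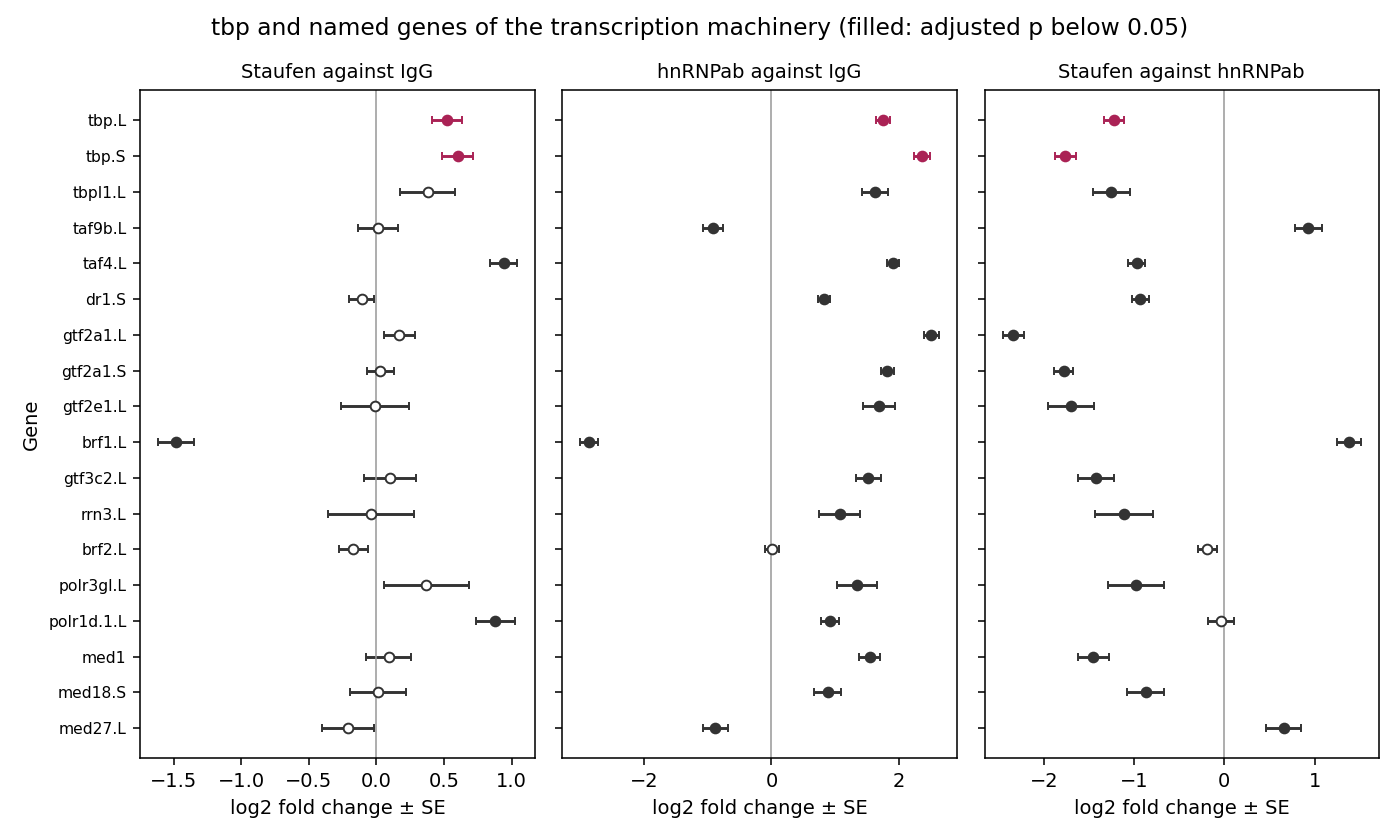
Log2 fold change ± SE (x axis, edgeR, scales differ between panels) of tbp (red) and the 16 named genes of the transcription machinery (black, y axis) in the 3 comparisons as labelled. Filled points have an adjusted p below 0.05. brf1.L stands opposite to tbp in all panels, at -1.48 and -2.86 against IgG. The authors list brf1.L in their hnRNPab table alone and tbp in their Staufen table alone.

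Among commonly used reference transcripts, 3 of 29 genes in the reference gene table have a name here, tbp.L, tbp.S and hist1h4a.L, a histone gene. In Staufen against IgG the tbp genes rose and hist1h4a.L did not pass, where 4.45% of all tested genes were called higher. All 3 rose in hnRNPab against IgG, where 16.3% of all tested genes were called higher. All 3 are in the authors' deposited Staufen table alone, where 83% of tested genes were higher. The count is therefore not a result about reference transcripts. The call of hist1h4a.L (log2 0.74, edgeR adjusted p = 0.0494) was not stable. It was lost when any library other than IgG 1, Staufen 1 or hnRNPab 2 was left out (edgeR adjusted p from 0.0586 to 0.158). With library size alone it was lost as well (0.0731).

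The named genes with the pattern most like tbp were sought by Pearson's r of log2 CPM over the 12 libraries, among 2576 named genes with a mean of at least 5 CPM. The r mainly reflects the separation of the labels, which all these genes share, and is a description. For tbp.L the nearest was its homeolog tbp.S (r = 0.994), followed by ccdc50.S (0.993), mllt1.L (0.993), epb41.L (0.990) and rassf3.L (0.990). For tbp.S the nearest were slc16a3.L (0.997), mllt1.L (0.995), tbp.L (0.994), epb41.L (0.994) and ccdc50.S (0.994). All of them are in the authors' deposited Staufen table alone. That table alone holds 1978 tested genes, the hnRNPab table alone 1482, and 448 are in both. The share among the 2576 candidates was not counted. Other named genes were nearly as close, with 27 above r = 0.98 for tbp.L and 54 for tbp.S.

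The nearest genes differ in what they encode. mllt1.L, for a chromatin reader of the super elongation complex, had 119 ± 7.34 CPM in Staufen-labelled, 319 ± 26.6 CPM in hnRNPab-labelled and 76.2 ± 2.77 CPM in IgG-labelled libraries (SD, n = 4 each). slc16a3.L encodes a monocarboxylate transporter and epb41.L a protein of the membrane skeleton. The blood marker slc4a1.L, an anion exchanger of red cells, had 31.14 ± 6.28 CPM in Staufen-labelled, 125.3 ± 26.6 CPM in hnRNPab-labelled and 28.71 ± 4.76 CPM in IgG-labelled libraries (SD, n = 4 each). It rose in hnRNPab against IgG (log2 2.13, SE 0.182, edgeR adjusted p = 3.36e-06) and is the only named gene of 12 blood markers. slc4a1.L is in the authors' deposited Staufen table alone, where 83% of the 1978 tested genes were higher in this comparison. The oocyte marker gdf9.L, also in that table alone, rose as well (log2 1.46, SE 0.118, edgeR adjusted p = 2.32e-06). Of the other marker lists, 1 of 27 follicle and theca markers (foxo1.L) and 0 of 20 stromal and endothelial markers have a name. foxo1.L passed in no comparison without the replicate block, and with it was lower in hnRNPab against IgG (log2 -0.39, edgeR adjusted p = 1.64e-06) and higher in Staufen against hnRNPab (0.38, edgeR adjusted p = 3.42e-06). The part of such cells in the tbp levels was not tested.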

How the data were processed

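The deposited counts are whole-number reads per gene without normalization, 1 file per library. STAR 2.6.1b, HTSeq 0.9.1 and edgeR are named in the submitters' processing notes. For build, annotation and strand, nothing is given in the labels or headers. The authors deposited 2 tables of listed genes with log2 fold changes, an F score, p-values and adjusted p-values, per the file headers. Gene names came from these tables alone, so each named gene had been selected by the authors, and 16895 tested genes are in neither table. The reference gene table (Xenopus_laevis_v10.1) served to count list members, and no sequences or coordinates were used.

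Lines for reads outside annotated exons or overlapping several genes (11.01% to 19.63% and 0.5213% to 0.7906% of singly aligned reads) stayed out of library sizes. Counts were fitted with edgeR 4.0.16 in R 4.3.3 (TMM, filterByExpr, all 12 libraries, group as the only term, quasi-likelihood F test, Benjamini-Hochberg at 0.05 over all tested genes). The method was tested on simulated counts drawn independently for each library. These lacked the shared deviations of same-numbered libraries, so the simulation does not cover that feature of the data. A count of 0 allows up to 3 counts, or 0.136 to 0.212 CPM. Replicates differed beyond counting error (chi-square per degree of freedom of at least 14.5).

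Pairing was read from the data. Deviations from group means correlated at 0.783 to 0.875 across genes between same-numbered libraries of different labels. A replicate block was therefore fitted as an alternative. Between other libraries of different labels the correlations were -0.508 to -0.059. Deviations cancel within each group, so with positive values for same numbers the others must be negative on average. The tbp.L share was tested with exact permutation. Other alternatives were RLE size factors, library size alone, no filter, DESeq2 1.42.0, fits on 2 groups, the log2 ratio of the copies and leaving out each library. Genes named were both tbp copies, list members called in a comparison, and the 5 named genes nearest each copy by r (log2 CPM, prior count 2). The list members brf2.L and foxo1.L, not called without the block, are named after their values were seen. The members and lists were chosen with earlier results of these data known.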

Additional observations from a re-analysis of the deposited data

How the results depend on the processing

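The calls for tbp.L, tbp.S and their sum in the 3 comparisons make 9 results. They kept their direction and stayed below 0.05 in all 198 alternative values of these results together. The highest edgeR adjusted p was 0.0462 (tbp.L, Staufen against IgG, without IgG 2). Without 1 library, log2 fold changes for tbp.L ran from 0.45 to 0.57 (Staufen against IgG), 1.68 to 1.82 (hnRNPab against IgG) and -1.3 to -1.15 (Staufen against hnRNPab). For tbp.S they ran from 0.55 to 0.65, 2.3 to 2.46 and -1.86 to -1.7 in the same order. The replicate block changed no tbp call. In Staufen against IgG it added calls for the list members tbpl1.L, polr3gl.L, gtf2a1.L, brf2.L and gdf9.L (edgeR adjusted p = 6.28e-07 for gdf9.L) and for rassf3.L (6.76e-06). It also added brf2.L in Staufen against hnRNPab and foxo1.L in both comparisons with hnRNPab. It called 8203 genes in Staufen against IgG (1618 without it), 13442 in hnRNPab against IgG (7005) and 13431 in Staufen against hnRNPab (6837), and 7 transcription machinery genes in Staufen against IgG (3). The block without each replicate number in turn, chosen after seeing the data, gave 7731, 7010, 6849 and 7061 genes in Staufen against IgG, 12735, 12624, 12507 and 12473 in hnRNPab against IgG, 12758, 12725, 12335 and 12435 in Staufen against hnRNPab, and 8, 5, 5 and 7 machinery genes in Staufen against IgG. DESeq2 called 2530 genes in Staufen against IgG. Leaving out 1 library gave 1012 to 1904 there, with the lowest count without IgG 2. The tbp.L share kept its direction throughout. It differed by -10.8 to -9.86 points in hnRNPab against IgG and by 8.09 to 9.71 points in Staufen against hnRNPab when 1 library was left out, with adjusted p up to 0.0857, since 3 against 4 libraries cannot reach 0.05. In the paired sign-flip test these were -10.2 and 8.75 points (exact p = 0.125, adjusted p = 0.188 each), which 4 pairs cannot bring lower. Depth did not limit the tbp values, which rest on at least 488 counts per library for each copy.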
